A study of Mus musculus with 6 samples.

Results

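Autophagy genes were followed in single mouse oocytes. The 10 genes, Atg3, Atg4b, Atg5, Atg7, Atg12, Becn1, Gabarapl1, Gabarapl2, Map1lc3b and Sqstm1, were taken by symbol and not by a rule on their measured values. Earlier results of these data were known when the genes were chosen. Of these 10 genes, 9 had a probe among the 13840 genes with a symbol on the array, with 11 of the 33012 probes. Atg12 was not analysed here. Gabarapl2 and Map1lc3b had 2 probes each.

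Autophagy is the process by which a cell wraps part of its own cytoplasm in a double membrane, the autophagosome, and delivers it to the lysosome for breakdown. Beclin 1 (Becn1) belongs to the lipid kinase complex that starts the membrane. A ubiquitin-like chain of reactions (Atg3, Atg4b, Atg5, Atg7, Atg12) then couples the Atg8 proteins (Map1lc3b, Gabarapl1, Gabarapl2) to membrane lipid, and receptors such as Sqstm1 (p62) bind cargo to them. In the mouse, autophagy is known for the turnover of maternal proteins after fertilization.

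Each of 6 oocytes was hybridized to its own Applied Biosystems array, read by chemiluminescence: 3 were mature oocytes deficient in Ago2, and 3 were germinal vesicle (GV) oocytes of wild-type females. The Ago2-deficient oocytes came from [Ago2F/F, Zp3-Cre] females, in which both floxed Ago2 alleles are exposed to a Cre recombinase that the Zp3 promoter drives in growing oocytes, and the study's discussion allows that the deletion may leave some Ago2 function. The wild-type oocytes were labelled as GV oocytes from adult females, carried no stated allele or agent, and were said to have been taken from the oviduct and freed of cumulus cells with hyaluronidase. That conflicts with the GV label, since oocytes in the oviduct have been ovulated and the study's methods describe its mature oocytes in this way, and the stage of these controls is given here only as labelled. Genotype and labelled stage changed together between the groups, so that the effects of Ago2 loss and of any difference in stage cannot be told apart, and no exact ages were given.

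The arrays of the mutant oocytes detected fewer probes. At a signal-to-noise ratio (S/N) of at least 3, 4620 to 6798 probes were detected in the Ago2-deficient and 10650 to 11334 in the GV oocytes, and of the probes with a single symbol 16.4% to 24.4% against 40.7% to 43.0%. The Ago2 probe read 6.67, 6.49 and 6.94 (log2) in the Ago2-deficient and 7.88, 6.25 and 6.93 in the GV oocytes and reached detection only in GV replicate 1. No source used here places this probe against the deleted exons, and the genotype therefore could not be checked with it. Oocyte markers were present: of 11 with a probe, 9 were detected in every Ago2-deficient and 11 in every GV oocyte. Their summed signal was lower in the mutant, at 1665580 to 2172010 against 6103780 to 6888170. All of them read lower in the mutant, by log2 differences from -0.41 for Oosp1 to -4.49 for Zp3. All but Bmp15 and Oosp1 were called lower by the test described below, and Zp2 was detected in no Ago2-deficient oocyte. Of 10 cumulus and granulosa cell markers, none was detected in every Ago2-deficient and 2, Inha and Nr5a2, in every GV oocyte, and their summed signal was 2185 to 3261 against 3809 to 5647, with Amh, Fshr, Has2 and Tnfaip6 detected on no array. Of 3 blood and vessel markers, none was detected in every oocyte of a group, at a summed signal of 1136 to 3284 against 391 to 891, with Hba-a1 and Ptprc on no array. The part of detection and of these other cells in the differences given here was not tested.

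The start regions of the members called below, Atg3 and Map1lc3b, are shown because the transcription factor Tfeb, which binds CACGTG-containing elements of autophagy and lysosome genes, was itself measured. They are the 250 bases before the RefSeq gene start (GRCm38.p6, forward strand, chr16:45158579-45158828 for Atg3 and chr8:121590188-121590437 for Map1lc3b). Capitals mark CACGTG, which reads the same on both strands, and the GC box CCGCCC or its reverse GGGCGG.
Atg3: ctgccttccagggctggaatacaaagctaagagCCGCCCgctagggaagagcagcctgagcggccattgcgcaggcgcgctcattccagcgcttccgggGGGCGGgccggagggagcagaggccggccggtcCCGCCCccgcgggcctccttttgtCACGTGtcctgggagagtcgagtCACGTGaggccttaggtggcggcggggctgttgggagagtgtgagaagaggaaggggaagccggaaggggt
Map1lc3b: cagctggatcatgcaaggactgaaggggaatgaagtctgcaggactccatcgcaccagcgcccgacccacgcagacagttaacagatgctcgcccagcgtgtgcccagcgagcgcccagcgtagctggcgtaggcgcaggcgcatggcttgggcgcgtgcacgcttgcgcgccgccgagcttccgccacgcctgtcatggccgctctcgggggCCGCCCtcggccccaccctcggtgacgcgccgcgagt
The Atg3 region held 2 copies of CACGTG, starting 94 and 71 bases before the gene, and 3 GC boxes, whereas that of Map1lc3b held no CACGTG and 1 GC box 37 bases before the gene. Among the 8 members matched to a start region, Atg5 and Atg7 each held 1 CACGTG and the other 5 none. Of all 32851 start regions of this length, 6.02% held CACGTG, 0.429% held it at least 2 times, and 32.7% held a GC box. No overlap of the 2 motifs was seen in the Atg3 or Map1lc3b region, and a match describes letters, not a bound site.

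On these arrays the membrane-coupling gene Atg3 and 1 probe of the Atg8 gene Map1lc3b lay lower in the Ago2-deficient oocytes than in the GV oocytes, and no member was called higher. Only 4 of the 9 genes, Atg3, Gabarapl2, Map1lc3b and Sqstm1, reached detection in every oocyte of either group and could be tested. Tests were made with limma on the authors' quantile-normalized log2 values, and a gene was called at a Benjamini-Hochberg adjusted p under 0.05, over all tested probes, with a fold change over 2. Of the 4, 2 were called, both lower, beside 62.2% of the 7915 genes tested, 44.8% lower and 17.4% higher, so that the share of members called was not above the background. The median log2 difference of all tested genes was -1.39, and differences relative to it are given where they change the reading. Precision is limited by the number of arrays. Separate animals are not stated, and the p-values then reflect no more than the spread among these 6 oocytes, which may be technical.

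**Figure D1:**
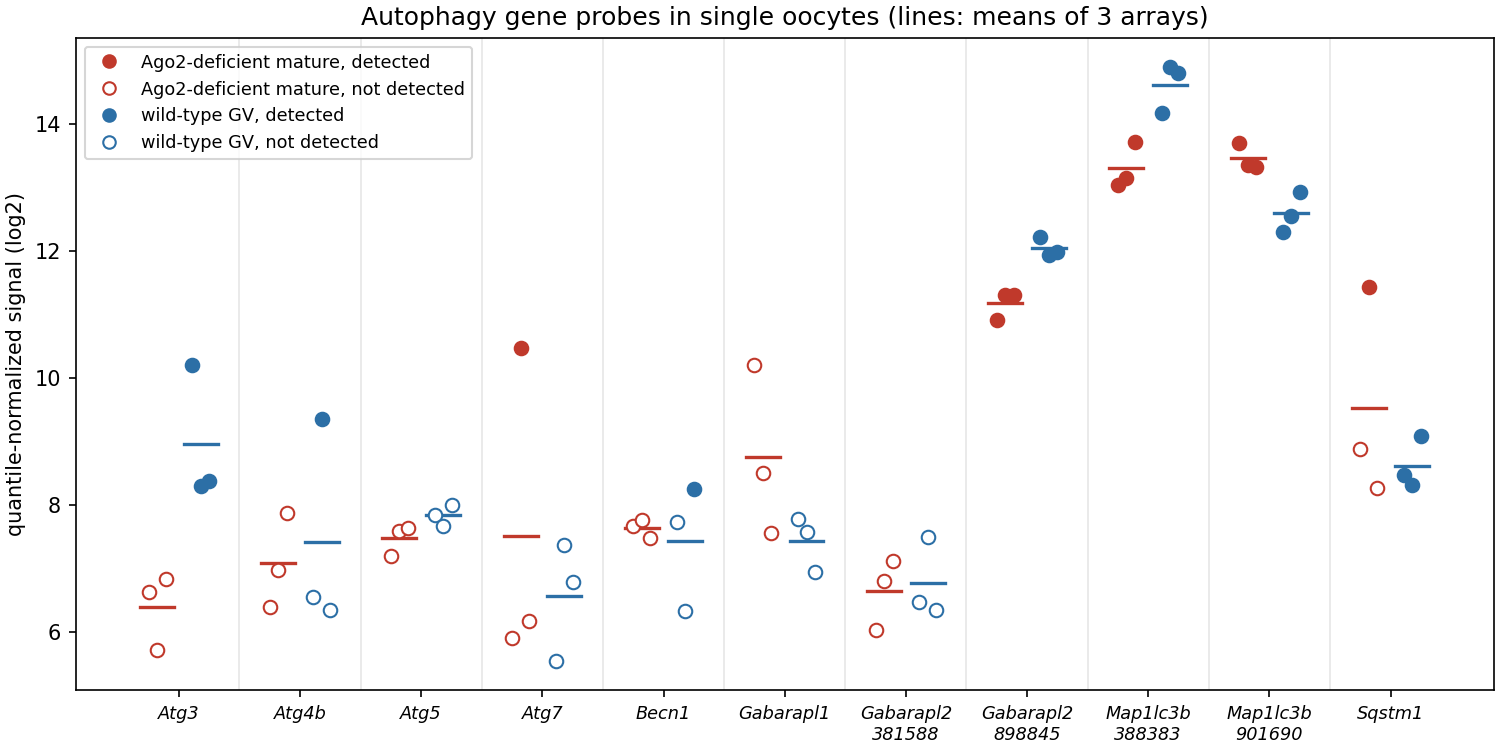
Quantile-normalized log2 signal (vertical axis) of the 11 autophagy gene probes (horizontal axis, with probe numbers where a gene had 2) on each of the 6 arrays; circles are single oocytes, filled where S/N was at least 3, and lines are means of 3 arrays. All 6 circles are filled only for Gabarapl2 probe 898845 and both Map1lc3b probes, and the groups lie in opposite order at the Map1lc3b probes, where the order at probe 901690 turns without scaling or with equal medians. Levels of different probes are not comparable.

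Atg3, the E2-like enzyme that transfers Atg8 proteins onto phosphatidylethanolamine, was called lower under all 4 scalings. Its log2 signal was 6.63, 5.71 and 6.83 in the Ago2-deficient group, against 10.21, 8.30 and 8.37 in the GV group. Every GV oocyte lay above every Ago2-deficient oocyte, as in 50.3% of all genes tested (70.4% did not overlap in either order), and GV replicate 1 stood above the other GV oocytes. The deposited S/N was 0.06, -0.05 and -1.96 in the Ago2-deficient and 26.0, 4.93 and 4.34 in the GV oocytes. Atg3 was tested only because its S/N reached 3 in all GV oocytes, so the S/N gives no separate support. Atg3 was thus detected in all GV and in no Ago2-deficient oocyte, a pattern shared by 32.8% of all tested genes. The means were 6.39 ± 0.60 and 8.96 ± 1.08 (SD, n = 3 arrays in each group), a log2 difference of -2.57 (standard error 0.62, limma adjusted p = 0.0108). As it was below detection in the mutant, its fold is also given with a floor. The GV mean was set against, on each Ago2-deficient array, the lowest signal of any detected probe or the Atg3 signal itself, whichever was higher. This floored fold was 5.52, lower in the mutant. It is not a lower limit on the difference. The floors, 6.13, 6.02 and 6.31, lay below the median log2 signal of all probes, 7.25. The 95% interval of the fitted log2 difference was -4.06 to -1.07. The floored folds of Atg3 and of other genes hold for the quantile-normalized values. Without GV replicate 1 the floored fold of Atg3 was 3.58 and the log2 difference -1.94 (limma adjusted p = 0.0239). Relative to all tested genes Atg3 differed by -1.18, by -2.16 with cyclic loess, and by -0.19 without scaling or with array medians set equal.

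Map1lc3b encodes LC3B, the Atg8 protein most used to mark autophagosomes, and its 2 probes did not tell the same story. Probe 388383 read 13.04, 13.15 and 13.71 in the Ago2-deficient and 14.17, 14.89 and 14.80 in the GV oocytes, with no overlap. The means were 13.30 ± 0.36 and 14.62 ± 0.39 (SD, n = 3), a 2.49-fold lower signal in the mutant (log2 difference -1.32, standard error 0.37, limma adjusted p = 0.0197). Since all tested genes shifted by -1.39 at the median, this probe differed by 0.072 relative to them, but by -0.92 with cyclic loess and by -1.45 without scaling or with equal medians. The median itself turned with the filter, to 0.83 among probes detected on all 6 arrays, as this one was, and to 0.13 with no filter on dim probes, and the probe then differed from it by -2.15 and -1.45. The call was lost without GV replicate 2 (-1.18, limma adjusted p = 0.0841) and without GV replicate 3 (-1.23, limma adjusted p = 0.0796).

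Probe 901690 of Map1lc3b lay the other way. It read 13.70, 13.34 and 13.32 in the Ago2-deficient and 12.29, 12.55 and 12.92 in the GV oocytes, again with no overlap but with the mutant oocytes on top. The log2 difference was 0.87 (standard error 0.33, 95% interval 0.067 to 1.67, limma adjusted p = 0.0584), which was not called. The direction rested on the scaling between arrays: the signal as scanned was 3545, 7541 and 5041 in the Ago2-deficient and 12678, 13047 and 15746 in the GV oocytes, and the log2 difference was -1.42 without scaling (limma adjusted p = 0.0309) and -2.53 with equal medians (limma adjusted p = 0.000648), both called lower. With the median of both probes in place of probe 388383, Map1lc3b differed by -0.22 and was not called (limma adjusted p = 0.573).

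The unequal change of the Map1lc3b probes was seen under each scaling. Within each array, probe 388383 minus probe 901690 was -0.67, -0.19 and 0.39 in the Ago2-deficient and 1.88, 2.33 and 1.87 in the GV oocytes on the log2 scale. All 3 GV values lay above the Ago2-deficient ones, with a difference of -2.18 between the group means, given as a description with no test since the pair was singled out after its values were seen. This difference was -2.27 with cyclic loess and -2.00 without scaling, and equal medians give the same value by construction. Of 100 named genes with several tested probes, 34 had probes whose differences were of opposite sign, 14 had probes called in opposite directions, and 47 had a spread between probes at least as large as Map1lc3b. The place of the probes on the transcript, and whether a probe also binds RNA of a related gene such as Map1lc3a, is given by no source used here.

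**Figure D2:**
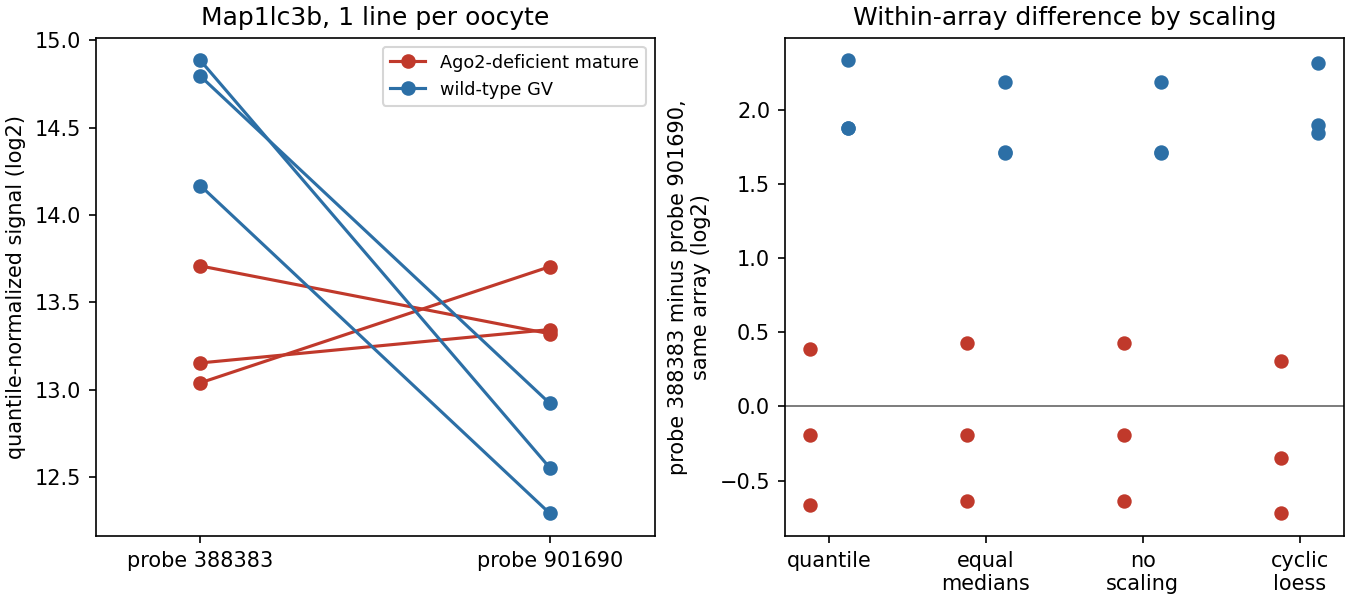
Left, quantile-normalized log2 signal of both Map1lc3b probes, with 1 line for each oocyte; right, probe 388383 minus probe 901690 on the same array (log2) under 4 scalings, with 1 point for each oocyte. The GV oocytes lie between 1.71 and 2.33 and the Ago2-deficient oocytes between -0.72 and 0.43 under all 4 scalings.

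Gabarapl2 (GATE-16), an Atg8 protein of the subfamily that acts late in autophagosome closure, was detected in every oocyte with its probe 898845. The log2 signal was 10.91, 11.31 and 11.30 in the Ago2-deficient and 12.21, 11.93 and 11.98 in the GV oocytes, without overlap and with little spread in either group. The S/N was far lower in the mutant, at 3.15, 7.09 and 3.84 against 83.5, 67.4 and 57.2. The log2 difference was -0.87 (standard error 0.31, 95% interval -1.61 to -0.12, limma adjusted p = 0.0465), which passed the p limit at 1.82-fold but not the fold limit and was not called. The p limit was itself missed in 5 of the 6 fits that left out 1 oocyte (limma adjusted p = 0.0529 to 0.142), with a replicate block (0.129), with array weights (0.0986), with trend and robust variance (0.0747), without a filter on dim probes (0.208) and with an S/N limit of 2 (0.0545). The size depended on the scaling: it was -0.14 with cyclic loess (limma adjusted p = 0.751), but -2.92 without scaling and -4.03 with array medians set equal, where Gabarapl2 was called lower. Relative to all tested genes it differed by 0.52, 0.22, -0.95 and -0.95 in the same order, starting with the quantile-normalized values. The 0.52 turned with the filter, to -1.70 among probes detected on all 6 arrays and to -0.996 with no filter on dim probes. The other Gabarapl2 probe, 381588, was detected on no array, at S/N of -1.43 to 1.78, and gives no second measurement.

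Sqstm1, the cargo receptor that is itself degraded by autophagy, did not separate the groups. It read 8.88, 11.43 and 8.28 in the Ago2-deficient and 8.47, 8.31 and 9.09 in the GV oocytes. Ago2-deficient replicate 2 was the 1 mutant oocyte in which it was detected and lay above all others, and the remaining values of the groups overlapped. The log2 difference was 0.91 (standard error 0.83, 95% interval -1.07 to 2.88, limma adjusted p = 0.367), and it was -0.043 without Ago2-deficient replicate 2. Cyclic loess alone among the scalings called it, higher by 2.16 (limma adjusted p = 0.0146), whereas with array medians set equal it differed by -0.43 (limma adjusted p = 0.544). Relative to all tested genes Sqstm1 stood 2.29 higher on the quantile-normalized values and 2.52 to 2.65 higher under the other scalings, but 1.38 higher without Ago2-deficient replicate 2 and 0.78 higher with no filter on dim probes.

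**Figure D3:**
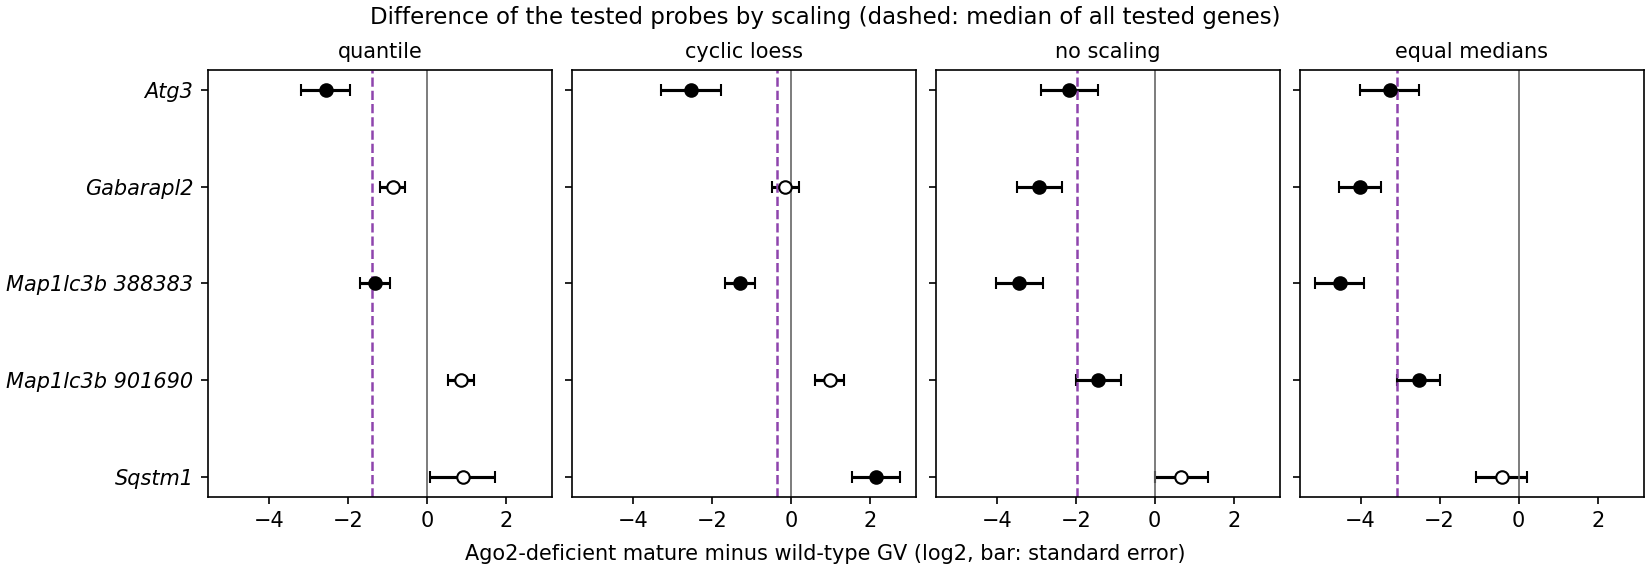
Log2 difference (horizontal axis) of the 5 tested autophagy probes, with the GV mean subtracted from the Ago2-deficient mean, under 4 scalings of the arrays (panels); bars are standard errors, filled circles are called, and a dashed line marks the median over every tested gene. Atg3 and Map1lc3b probe 388383 lie left of 0 in every panel, Map1lc3b probe 901690 moves from 0.87 to -1.42 without scaling and -2.53 with equal medians, and Sqstm1 moves to -0.43 with equal medians.

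The upstream members were mostly under the detection limit and were not tested. Atg7, the E1-like enzyme that activates both Atg12 and the Atg8 proteins, read 5.91, 10.47 and 6.17 in the Ago2-deficient and 5.55, 7.37 and 6.80 in the GV oocytes. Only Ago2-deficient replicate 2 reached detection (S/N 8.14), the oocyte in which Sqstm1 was also highest. Atg4b, the protease that trims Atg8 proteins before coupling and releases them from membrane afterwards, read 6.40, 6.97 and 7.88 against 6.55, 9.35 and 6.35, and was detected only in GV replicate 2 (S/N 9.12). In both genes, therefore, 1 oocyte stood more than 1 log2 unit above all others, and the groups overlapped.

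Becn1 read 7.67, 7.76 and 7.48 in the Ago2-deficient and 7.74, 6.33 and 8.25 in the GV oocytes and was detected only in GV replicate 3 (S/N 7.25). The values of the groups overlapped throughout. Atg5, the partner to which Atg12 is coupled, read 7.19, 7.60 and 7.65 against 7.85, 7.68 and 8.00 and reached detection nowhere, with S/N of -0.24 to 1.89 in the Ago2-deficient and 2.17 to 2.81 in the GV oocytes. The GV oocytes lay just above the mutant ones, all under the S/N limit of 3. Gabarapl1, a close relative of Gabarapl2, read 10.21, 8.51 and 7.56 against 7.78, 7.57 and 6.94, with overlapping groups, and was likewise detected nowhere, with its highest S/N, 2.60, in Ago2-deficient replicate 1. When every probe on the array was fitted, the log2 differences of these 5 genes ran from -0.36 for Atg5 to 1.33 for Gabarapl1, with limma adjusted p from 0.287 to 0.862, and 95% intervals as wide as -1.85 to 3.74 for Atg7. No difference in them was detectable on these arrays.

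The genes most like each tested member over the 6 oocytes were found by the distance between profiles. With each gene's log2 values centred on their own mean, the nearest of 4567 other named genes to Gabarapl2 were Mrps33 (root mean square difference 0.0642) and Stbd1 (0.0982), and to Map1lc3b probe 388383 Golga2 (0.138) and Vwa3a (0.154). For Atg3 they were Crtac1 (0.335) and Erlec1 (0.366), and for Sqstm1 Tmem108 (0.167) and Ceacam14 (0.406). Over 6 arrays in 2 groups such likeness is a description only.

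Other genes of the autophagy pathway were mostly lower or not called, as were tested genes in general. Of 73 further genes listed by role, 56 had a probe and 22 were tested, of which 9 were lower, 1 was higher and 12 were not called. That is 45.5% called beside 62.2% of all tested genes, with a median log2 difference of -1.87 beside -1.39. Of the 22, 7 were detected in every GV and in no Ago2-deficient oocyte, beside 32.8% of all tested genes, and 6 on all 6 arrays, beside 31.5%. Without Ago2-deficient replicate 3 the counts were 13 lower and 3 higher of 23 tested, beside 3812 lower and 1474 higher of all 8051 tested. With array medians set equal, 20 of the 22 were lower and none higher, beside 6223 lower and 311 higher of all 7915 tested.

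Of the cargo receptors other than Sqstm1, 3 were tested and 3 were called lower, beside 44.8% of all tested genes. All 3 passed the detection filter only through the GV oocytes. Among the receptors not tested, Tollip and Retreg1, detected on no array, read higher in the mutant, by 2.20 and 1.22. Fundc1 read lower by -2.04 and the 2 Bnip3 probes by -1.43 and -1.77. Bnip3l (Nix), a receptor for mitochondria, read 7.29, 5.20 and 6.94 in the Ago2-deficient and 12.17, 12.09 and 11.66 in the GV oocytes. Its floored fold was 37.3, lower in the mutant. Its fitted log2 difference of -5.50 (limma adjusted p = 0.000447) was -3.50 with cyclic loess and -3.27 with the median of its probes. Its other tested probe also lay lower, at -1.04, but was not called (limma adjusted p = 0.203). Nbr1, a relative of Sqstm1 in function, was lower by a floored fold of 13.0 and was likewise detected in no Ago2-deficient oocyte. Its fitted log2 difference of -3.72 (limma adjusted p = 0.00136) was -1.81 with cyclic loess (limma adjusted p = 0.0394). Tax1bp1, another ubiquitin-binding receptor, differed by -3.72 (limma adjusted p = 0.0135) and was detected in 2 mutant oocytes. Without Ago2-deficient replicate 1 its difference was -2.57 and without Ago2-deficient replicate 3 it was -4.40, with cyclic loess it was -2.11, and the call was lost without GV replicate 1 (limma adjusted p = 0.0536) and with ordinary t-statistics (adjusted p = 0.0588).

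Of 7 tested fusion and lysosome genes, 2 were called lower, 28.6% beside 44.8% of all tested genes. These were Vamp8 and Stx17, which encode SNARE proteins that join the autophagosome to the lysosome. Both passed the detection filter only through the GV oocytes. Snap29, the other SNARE of that complex and named after its values were seen, was not called at -2.07 (limma adjusted p = 0.0695). Vamp8 read 7.68, 6.81 and 6.96 against 11.61, 11.77 and 11.33 and was 21.4-fold lower (limma adjusted p = 0.00021). Stx17 read 6.34, 6.73 and 7.87 against 11.03, 11.60 and 10.99 and was 18.7-fold lower (limma adjusted p = 0.000538). Neither was detected in any Ago2-deficient oocyte, and their fitted log2 differences of -4.42 and -4.23 were -2.26 and -2.21 with cyclic loess. The small GTPase gene Rab7, detected in every oocyte, was not called at 0.21 (standard error 0.39, limma adjusted p = 0.659). Rab7 did change side with the scaling. It was called lower without scaling (-2.04) and with array medians set equal (-3.14), and was at -0.069 without Ago2-deficient replicate 3.

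Among genes that start the autophagosome, 2 members of the Ulk1 kinase complex were tested and both were called lower, beside 44.8% of all tested genes. Both passed the detection filter only through the GV oocytes. Ulk1 itself was detected only in Ago2-deficient replicate 1 and was not tested. It read 12.94, 7.99 and 9.85 in the Ago2-deficient and 6.67, 7.26 and 6.51 in the GV oocytes. Atg13 and Ulk2, also untested, differed by -0.80 and -0.48. Rb1cc1 (FIP200), the scaffold of the complex, differed by -2.97 (standard error 0.64, limma adjusted p = 0.00642), by -3.58 without Ago2-deficient replicate 3 and by -1.37 with cyclic loess (limma adjusted p = 0.0447). Atg101 differed by -2.51 (standard error 0.66, limma adjusted p = 0.0146) and by -3.19 without Ago2-deficient replicate 2. The Atg101 call was lost with cyclic loess (-0.87) and without GV replicate 1 or 2 (limma adjusted p = 0.0587 and 0.054) and with ordinary t-statistics (adjusted p = 0.0535). Pik3c3 (Vps34), the lipid kinase that Becn1 binds, was lower by a floored fold of 5.33, with no Ago2-deficient oocyte detected. Its fitted log2 difference of -2.41 (limma adjusted p = 0.00351) was -1.44 with cyclic loess. Rubcn, an inhibitor of that kinase complex, was detected in every oocyte and was not called at -0.37 (standard error 0.31, limma adjusted p = 0.328), though it was called lower with equal medians (-2.12). Of 2 tested genes for membrane growth, 1 was called lower, beside 44.8% of all tested genes. Both passed the detection filter only through the GV oocytes. Among those not tested, Atg9a, Wipi2 and Vmp1 read higher in the mutant, by 3.17, 1.12 and 1.06, and Wdr45b lower by -1.05. The Atg2b probes differed by 1.92 and -0.15 and the Atg9b probes by -2.55 and -0.40. Tmem41b, the called gene, differed by -2.24 (limma adjusted p = 0.0238). Its call was lost with cyclic loess (-0.82), with no filter on dim probes (limma adjusted p = 0.069), with ordinary t-statistics (adjusted p = 0.0732), and when Ago2-deficient replicate 2 or any 1 GV oocyte was left out (limma adjusted p = 0.0577 to 0.0842), and its difference was -1.63 without Ago2-deficient replicate 1 and -2.92 without Ago2-deficient replicate 3. Wdr45, a phosphoinositide-binding protein of the same step, was not called at -1.23 (limma adjusted p = 0.251) but was called lower with equal medians (-2.25) and without Ago2-deficient replicate 2 (-2.25).

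The 1 gene called higher was Tfeb, the transcription factor that drives autophagy and lysosome genes. It read 10.89, 11.29 and 10.28 in the Ago2-deficient and 9.20, 8.83 and 8.71 in the GV oocytes, was detected in all 6 oocytes and did not overlap between the groups. The log2 difference was 1.91 (standard error 0.38, limma adjusted p = 0.00499), and 3.29 relative to all tested genes. That relative value fell to 1.07 among probes detected on all 6 arrays and to 1.78 with no filter on dim probes. The direction depended on the scaling: Tfeb was called with cyclic loess (3.14), but not without scaling (0.91, limma adjusted p = 0.182) or with equal medians (-0.19, limma adjusted p = 0.749). With no filter on dim probes, 2 of 56 pathway genes were called higher and 10 lower. Besides Tfeb, the higher one was Atg9a (3.17, limma adjusted p = 0.00206), which was detected on no array. Prkab1, a subunit of the energy sensor AMPK, was not called at 0.67 (standard error 0.31, limma adjusted p = 0.104) and was called lower with equal medians (-1.53). In the conjugation step the 1 tested gene beyond the members given above was Map1lc3a, an Atg8 protein related to Map1lc3b. It read 18.35, 18.73 and 17.78 against 17.91, 17.91 and 18.29, with overlapping groups, and was not called at 0.25 (standard error 0.37, limma adjusted p = 0.579). Its sign turned with cyclic loess (-0.023) and without scaling (-0.78), and with equal medians it was called lower (-1.89).

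**Figure D4:**
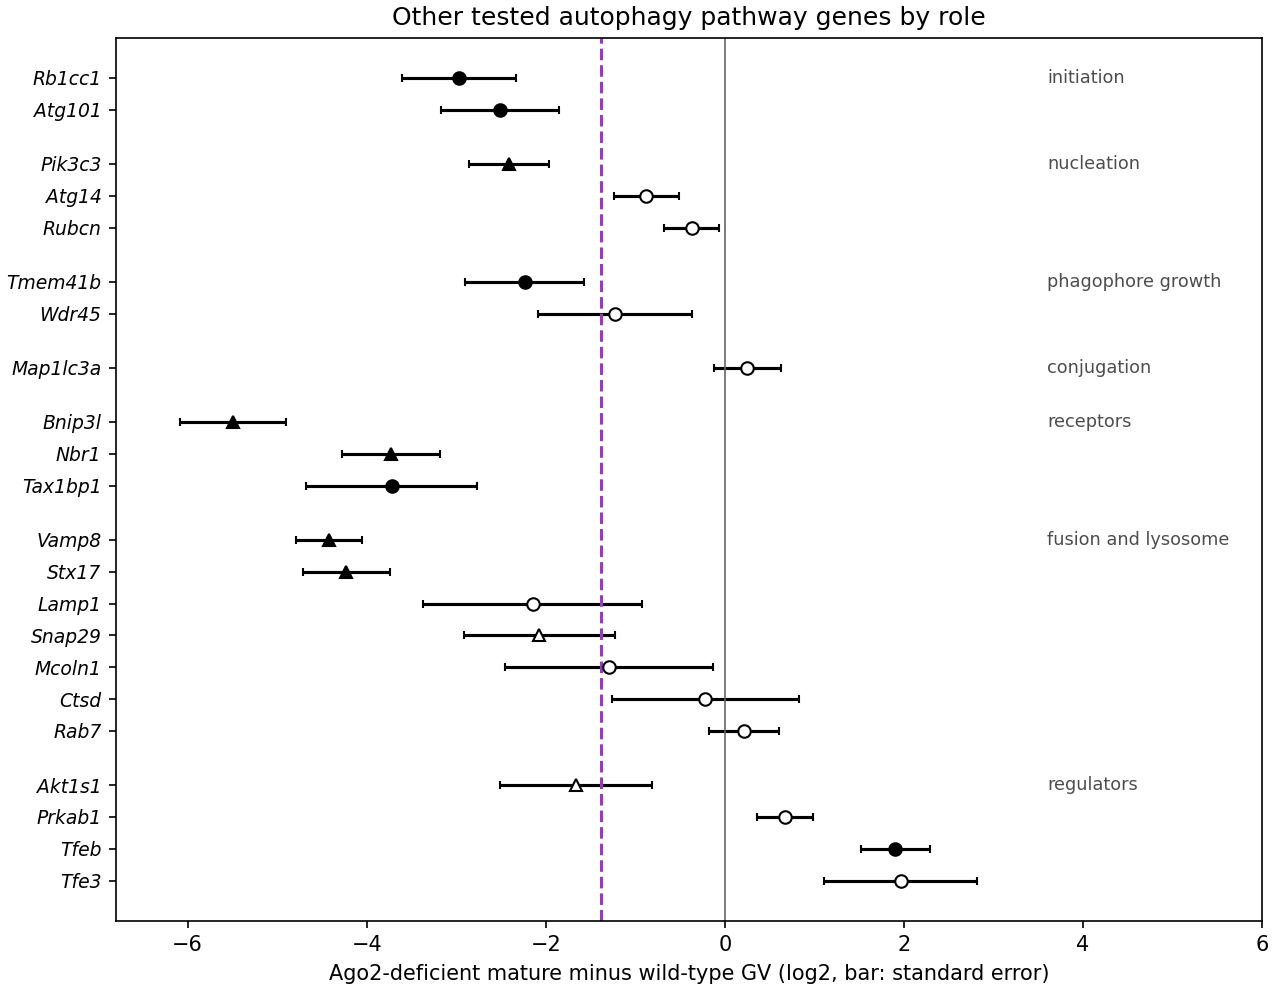
Log2 difference (horizontal axis) of the 22 other tested autophagy pathway genes, with the GV mean subtracted from the Ago2-deficient mean, grouped by role; bars are standard errors, filled symbols are called, triangles were detected in no Ago2-deficient oocyte, and a dashed line marks the median over every tested gene, -1.39. The receptors and the SNARE genes Vamp8 and Stx17 lie farthest left, from -5.50 to -3.72, and Tfeb is the 1 filled symbol right of 0, at 1.91, where it is not called without scaling and lies at -0.19 with equal medians.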

How the data were processed

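Each oocyte's cDNA was amplified and labelled with digoxigenin by in vitro transcription, and the cRNA was hybridized to an Applied Biosystems V2.0 mouse array. The deposited signal intensity was not scaled between arrays, and stood beside a deposited S/N score. The log2 values were quantile normalized over the 6 arrays by the authors. A table of the whole series repeated these values apart from 2675 empty cells, none at a member probe. No source used here names the scanner software.

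Probes were named from the platform annotation (14411 with 1 symbol, 247 with several, 18354 with none), and 14402 were found in the RefSeq gene table, with 0 symbols changed. Tested were 8018 probes of 7915 genes with S/N of at least 3 on all 3 arrays of a group. A gene with several probes was counted by the probe with the highest mean. The fit used limma 3.58.1 in R 4.3.3 without a replicate block and was tested on simulated data, and figures were made with matplotlib 3.10.9 under Python 3.11.15. Named pathway genes were, in each role, up to 3 called genes with the largest differences and the 1 gene not called with the highest mean. The members and lists were chosen with earlier results of these data known. Alternatives covered the scaling, filter, detection limit, thresholds, variance model, array weights, replicate block, choice of probe and each array left out.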

Additional observations from a re-analysis of the deposited data

How the results depend on the processing

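Atg3 kept its direction under every alternative run and its call under all but the stricter p limit, apart from the limit to probes detected on all 6 arrays, which left no value for Atg3 or Sqstm1. Under the stricter limit, an adjusted p under 0.01, Atg3 (-2.57) and Map1lc3b (-1.32) were not called. That left 0 members called by limma, beside 3707 of the 7915 genes tested. An unadjusted limma p under 0.05 was reached by 3 of the 4, Atg3, Gabarapl2 and Map1lc3b, beside 5303 of the 7915. Map1lc3b also lost its call with no filter on dim probes (limma adjusted p = 0.091) and with the median of its probes (-0.22), which left 1 member called in each case. Among probes detected on all 6 arrays only, 1 member, 1 pathway gene and 1671 of 2497 genes were called, 1128 higher and 543 lower with a median of 0.83, so that the balance of directions turned. Leaving out 1 array gave 1 to 2 members and 9 to 16 pathway genes called, beside 4231 to 5665 of all tested genes. It gave -2.90 to -1.94 for Atg3 and -1.54 to -1.18 for Map1lc3b probe 388383. It gave 0.72 to 1.03 for probe 901690, -0.93 to -0.74 for Gabarapl2 and -0.043 to 1.53 for Sqstm1, which turned sign without Ago2-deficient replicate 2. Gabarapl2 was called with no fold limit (-0.87), without scaling (-2.92) and with equal medians (-4.03). Probe 901690 turned to -1.42 and -2.53 under the last 2, Sqstm1 to -0.43 with equal medians, and cyclic loess called Sqstm1 (2.16). With equal medians 20 pathway genes were called. All tested genes split into 1378 higher and 3543 lower, against 311 and 6223 with equal medians, 609 and 4778 without scaling and 1952 and 2515 with cyclic loess, with medians of -3.08, -1.98 and -0.36. The cause of these shifts was not tested. With the replicate block 2 members, 10 pathway genes and 4675 of all genes were called and no member changed its call; deviations did not pair by replicate number (r = -0.0487, 0.0275 and -0.0339).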
